A study of Mus musculus with 12 samples.

Results

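The expression differences described here lie between SUMO-KD and wild-type mice after transient forebrain ischemia. They rest on 6 of the 12 expression arrays of the series, chosen by their titles: the 3 SUMO-KD ischemia arrays and the 3 wild-type ischemia arrays. Each array carried total RNA of the dissected CA1 field of the mouse hippocampus, pooled from 2 brains. Both groups of mice had 10 minutes of global cerebral ischemia and 3 hours of reperfusion, so the ischemia is shared by both sides of the comparison. SUMO-KD denotes transgenic mice with a knockdown of SUMO, the small ubiquitin-like modifier, and both genotypes went through the same surgery. The other 6 arrays came from the same 2 genotypes after sham surgery, 3 wild-type sham and 3 SUMO-KD sham, and are used below as a separate reading of the genotype difference. The labels name no promoter or target cell type for the transgene, no strain and no age, and they call the samples biological replicates without naming litter or surgery day. The p-values measure the spread between these pools, and in whole tissue fewer cells of a type and less RNA per cell cannot be told apart.

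SUMO proteins are joined to lysines of other proteins by a cascade of activating, conjugating and ligating enzymes, and SENP proteases take them off again. Many SUMO targets are transcription factors and chromatin proteins, and SUMO attachment is often linked to lower transcription. Brain ischemia is known to bring a large wave of SUMO conjugation, and the pyramidal neurons of CA1 are among the neurons most prone to die in the days after it.

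Values are the linear intensities of the deposited table, 1 probe set per gene for 12394 genes, and a difference is SUMO-KD minus wild-type in log2(intensity + 32). Genes are termed called where limma's two-sided moderated test gave a Benjamini-Hochberg adjusted p, taken over all genes, under 0.05, and every adjusted p below is of that kind. Probe sets differ in how brightly they bind, so levels are compared between arrays and never between genes. Arrays of the same group correlated at 0.985 to 0.991 within wild-type ischemia and at 0.988 to 0.992 within SUMO-KD ischemia, against 0.978 to 0.988 between the genotypes (Pearson r over genes).

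Some arrays stood apart from their group. The 3′ control probe set for 18S ribosomal RNA read 6316 in SUMO-KD ischemia replicate 2 and 2829 to 4127 in the other 5 ischemia arrays, and the neutrophil gene S100a8 read 705 there and 135 to 181 in the others. Choroid plexus markers differed widely within both genotypes. Kl read 187 in wild-type ischemia replicate 1 and 1043 and 1154 in the other 2, and it read 366, 1309 and 661 in the SUMO-KD ischemia arrays. The habenular gene Tac2 spread in the same way, from 47.8 to 958 in wild-type ischemia and from 110 to 556 in SUMO-KD ischemia. For these genes the genotypes overlapped, and the part of tissue makeup in the results below was not tested.

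After ischemia 193 genes differed between the genotypes, 1.56% of those tested, and all 193 had no overlap between the 3 SUMO-KD and the 3 wild-type arrays. SUMO-KD was higher for 124 genes (1.0%) and lower for 69 (0.557%). Over all genes the median difference was -0.00307 after ischemia and -0.0123 in sham. Every array had the same trimmed mean of 500.2, so these values cannot show whether 1 genotype was brighter as a whole. Arrays without overlap were common among all genes after ischemia, 11.3% with SUMO-KD higher and 8.90% with SUMO-KD lower. These shares are the background for any such count after ischemia below. The shares in sham were not counted, so sham counts without overlap are given below with no background and describe the lists only. The number called moved with single arrays: it was 150 without SUMO-KD ischemia replicate 2 (100 higher and 50 lower), 84 without wild-type ischemia replicate 1, 94 without SUMO-KD ischemia replicate 1 and 60 without SUMO-KD ischemia replicate 3.

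The direction set the genes apart when the sham arrays were read. In sham, 1.5% of genes were called higher and 0.597% lower in SUMO-KD. Of the 124 genes higher after ischemia, 122 had a difference of the same sign in sham and 69 were called higher there too, which is 55.6% of the ischemia calls and 37.1% of the sham calls. Of the 69 genes lower after ischemia, 58 had the same sign in sham and 10 were called lower there, 14.5% of the ischemia calls and 13.5% of the sham calls. The median difference of the higher genes was 0.76 after ischemia and 0.59 in sham, and that of the lower genes was -0.68 after ischemia and -0.22 in sham. The genes were chosen by their ischemia values, so a smaller sham median follows in part from the choice in both directions; among genes called in sham the medians were 0.79 in sham and 0.47 after ischemia for the higher, and -0.62 and -0.25 for the lower. The sham differences use none of the 6 ischemia arrays. The sham tests do use them, because the variance of each gene was shared by all groups in the fit. Sumo3, for example, had an SE of 0.097 both after ischemia and in sham. The calls in sham and after ischemia are therefore not independent. With only the compared groups in the fit, fewer genes were called after ischemia (35 higher and 13 lower), in sham and under both surgeries. The fall under both surgeries thus came with fewer calls in each, and the counts are given with the alternatives at the end.

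**Figure D1:**
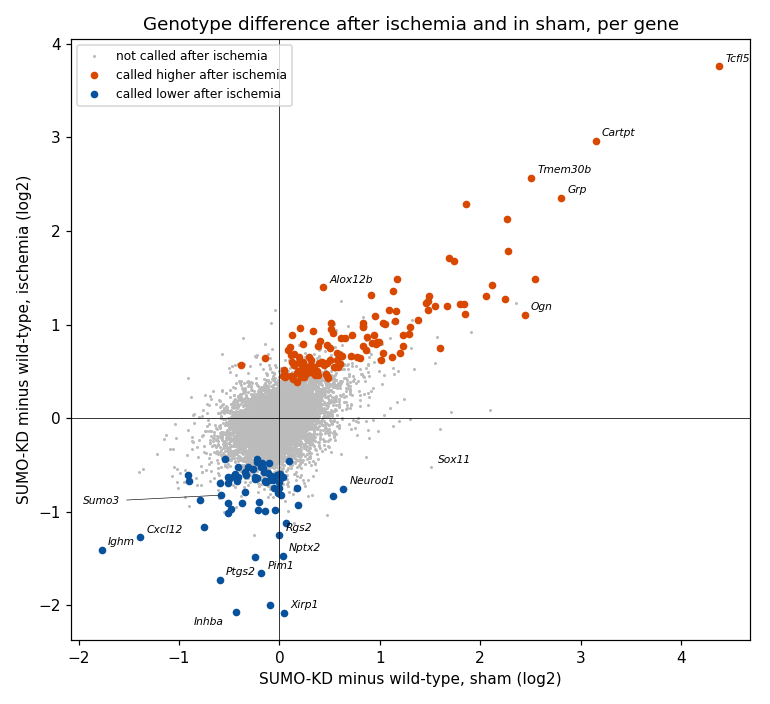
Each point is 1 of 12394 genes, with the SUMO-KD minus wild-type difference in sham on the x axis and after ischemia on the y axis, both in log2(intensity + 32). The genes called higher after ischemia (orange) run up and to the right, with Tcfl5 at 4.38 and 3.76, whereas many called lower (blue), such as Xirp1 at 0.05 and -2.08, sit near 0 on the sham axis.

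Sumo3, which encodes one of the SUMO proteins, was lower in SUMO-KD. It read 3436, 3245 and 3518 in the wild-type ischemia arrays and 1879, 1936 and 1909 in the SUMO-KD ischemia arrays. The groups lay far apart relative to their spread, with a difference of -0.82 (SE 0.10, adjusted p = 0.00151). It was also lower in sham (-0.58, adjusted p = 0.0096). A further Sumo3 probe set read 4.93 in wild-type and 2.54 in SUMO-KD on average, at background level, and when probe sets marked as shared between transcripts were left out only that one was read, with a difference of -0.10 (adjusted p = 0.696). Sumo2 was not analysed here, since both of its probe sets list several genes.

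Of 19 measured genes of SUMO attachment and removal, Sumo3 was the 1 called after ischemia. The others ranged up to 0.29 for Sae1, a subunit of the activating enzyme (adjusted p = 0.244), and the median of the list, Sumo3 included, was -0.04. Ranbp2, a nuclear pore protein and SUMO ligase, differed by -0.35 (adjusted p = 0.307), and the proteases Senp1, Senp2, Senp3 and Senp6 by -0.01, 0.03, -0.17 and -0.02. None of these passed.

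The largest difference in favour of SUMO-KD was in Tcfl5, a helix-loop-helix transcription factor best known from the testis. It read 41.3, 28.0 and 27.7 in the wild-type ischemia arrays and 839, 796 and 872 in the SUMO-KD ischemia arrays, a difference of 3.76 (SE 0.11, adjusted p = 1.34e-08). In sham it read 20.3 to 31.0 in wild-type and 1040 to 1274 in SUMO-KD. So the gene stood near background in every wild-type array and was bright in every SUMO-KD array, with or without ischemia.

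Genes of peptide signalling were called higher too. Cartpt, which encodes the precursor of the peptide CART, read 128, 146 and 216 in wild-type ischemia and 1592, 1392 and 1412 in SUMO-KD ischemia (difference 2.96, SE 0.20, adjusted p = 2.28e-05). Grp, gastrin-releasing peptide, read 94.2, 87.7 and 106 against 636, 521 and 718 (2.35, SE 0.13, adjusted p = 4.73e-06). Pcsk1, a convertase that cuts peptide precursors, read 58.3, 52.0 and 77.5 against 138, 126 and 116 (0.75, SE 0.16, adjusted p = 0.0398). None of the 3 overlapped between genotypes, and all 3 were called higher in sham as well, by 3.15, 2.80 and 1.60. The Pcsk1 call was lost, with adjusted p from 0.0841 to 0.145, without wild-type ischemia replicate 1 or 2 or without any 1 of the SUMO-KD ischemia arrays. Of 26 measured neuropeptide and secretion genes, 4 were called higher and none lower, where 1.0% of all genes were called higher. The fourth was Nmb, neuromedin B (0.55, adjusted p = 0.0399), which kept the call without wild-type ischemia replicate 2 and lost it without any 1 of the other arrays (adjusted p from 0.063 to 0.163). With an array left out the list's count was 3 (wild-type ischemia replicate 2 or 3) or 2 (each of the other 4), and Cartpt and Grp were called each time. The list's median was 0.10: the abundant interneuron peptides Npy (0.05), Cck (-0.16) and Vip (0.15) were not called, and Sst at 0.57 (adjusted p = 0.0526) and Penk at 1.08 (adjusted p = 0.0565) stood just outside the threshold.

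A collagen gene and a collagen-crosslinking enzyme were also among the largest higher differences. Col6a1, a chain of collagen VI, read 46.4, 54.4 and 129 in wild-type ischemia and 417, 484 and 513 in SUMO-KD ischemia (2.28, SE 0.26, adjusted p = 0.00116). Lox, lysyl oxidase, which crosslinks collagen and elastin, read 55.2, 63.9 and 117 against 330, 567 and 445 (2.13, SE 0.23, adjusted p = 0.000998). Both groups of 3 were separate for each gene, and both genes were called in sham, by 1.86 and 2.26. Of the other Lox probe sets, one gave 2.15 and the other, with means of 11.5 and 10.8, gave -0.02. Ltbp2, an extracellular matrix protein, read 24.1, 5.59 and 38.5 against 87.1, 111 and 161 (1.49, SE 0.26, adjusted p = 0.016). Its call was lost without wild-type ischemia replicate 1 (1.53, adjusted p = 0.0549) or SUMO-KD ischemia replicate 3 (1.30, adjusted p = 0.0796). Ogn, osteoglycin, a small matrix proteoglycan that also marks meninges, was higher by 1.11 (SE 0.22, adjusted p = 0.0294) and by 2.44 in sham. It kept the call only without wild-type ischemia replicate 3; without each of the other arrays the adjusted p was 0.0588 to 0.112. It was the 1 called of 11 meningeal and fibroblast markers, of which 8 were below 0, Dcn at -0.69 and Col3a1 at -0.66 among them and neither called. That list's median was -0.15, and -0.35 without SUMO-KD ischemia replicate 2. Over 45 measured matrix genes, Col6a1 and Lox were called higher, Acan was called lower, and the median was -0.11.

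Several genes with large differences are known mainly from epithelia. Kdf1, keratinocyte differentiation factor, read 5.16, 10.6 and 11.8 in wild-type ischemia and 112, 96.1 and 121 in SUMO-KD ischemia (1.78, SE 0.13, adjusted p = 3.5e-05). Ripk4, a kinase of epidermal differentiation, read 36.4, 49.1 and 63.4 against 180, 153 and 177 (1.32, SE 0.14, adjusted p = 0.000998). Amn, a partner of the cubilin receptor of gut and kidney, read 104, 134 and 142 against 588, 415 and 462 (1.71, SE 0.25, adjusted p = 0.00676). Each was separate between genotypes and each was called in sham. Tmem30b, a subunit of phospholipid flippases, behaved alike, at 25.9, 20.7 and 10.5 against 254, 292 and 258 (2.56, SE 0.16, adjusted p = 1.15e-05). In 14 of the 124 higher genes the wild-type mean was under 32, and the differences of such dim genes are understated on this scale.

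Alox12b, a lipoxygenase of the skin barrier, was the gene among the 15 largest that was not called in sham. It read 26.1, 22.7 and 7.13 in wild-type ischemia and 108, 72.4 and 123 in SUMO-KD ischemia (1.40, SE 0.20, adjusted p = 0.00569), and in sham 62.9 to 98.9 in wild-type and 95.8 to 138 in SUMO-KD (0.43, adjusted p = 0.35). The wild-type ischemia arrays lay below all other arrays for this gene. The difference between surgeries did not pass (0.96, adjusted p = 0.609), so the genotype difference is not shown to differ between ischemia and sham. Of the 36 genes higher by at least 2-fold, 34 were called higher in sham.

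**Figure D2:**
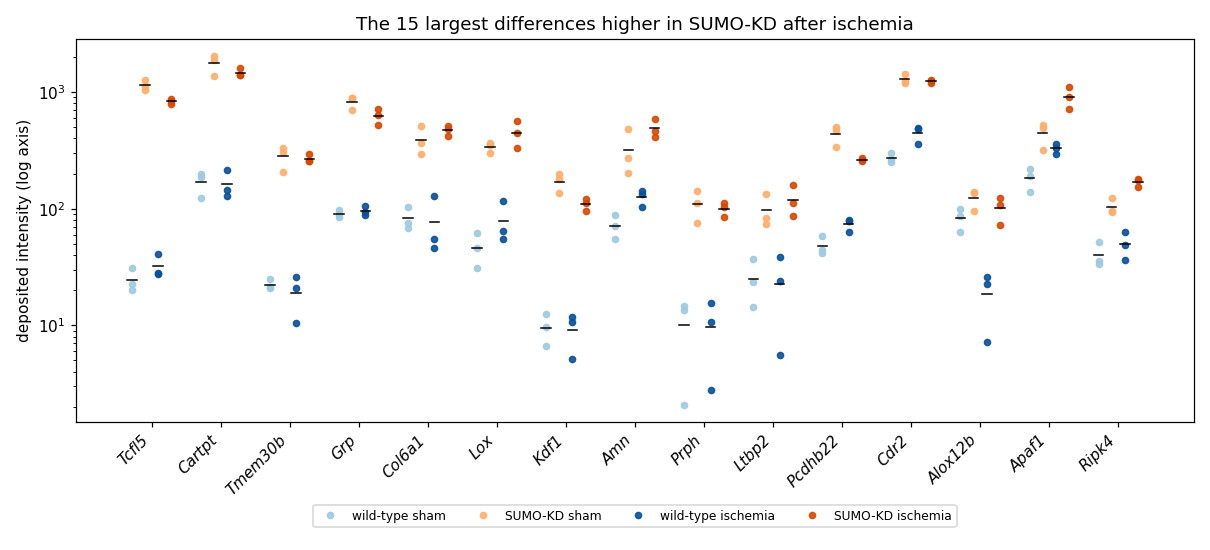
Deposited intensity on a log axis for the 15 genes with the largest differences higher in SUMO-KD after ischemia, with 1 point per array and a bar at the mean of each group of 3. For Tcfl5 the SUMO-KD arrays lie between 796 and 1274 and the wild-type arrays between 20.3 and 41.3, in sham as after ischemia.

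Apaf1, the scaffold of the apoptosome that activates caspase-9, read 359, 295 and 330 in wild-type ischemia and 711, 902 and 1103 in SUMO-KD ischemia (1.36, SE 0.20, adjusted p = 0.00785), and it was higher by 1.13 in sham. It was the 1 called member of 27 apoptosis regulators, whose median was -0.05. Another Apaf1 probe set gave 0.54 after ischemia and was not called. Prph, peripherin, a neuronal intermediate filament protein, read 10.6, 2.77 and 15.4 against 85.7, 112 and 103 (1.68, SE 0.19, adjusted p = 0.00116); its 3 other probe sets gave 0.10, -0.16 and -0.16, and on the mean of its probe sets the difference was 0.36 (adjusted p = 0.258). Cdr2, an intracellular antigen of paraneoplastic cerebellar degeneration, read 360, 486 and 491 against 1192, 1274 and 1251 (1.42, SE 0.12, adjusted p = 0.00022). Trp53inp1, a p53-induced autophagy and stress protein, was higher by 1.004 (SE 0.18, adjusted p = 0.0216), and it was not called without any 1 of the 6 arrays (adjusted p from 0.0504 to 0.0967) or on the mean of its probe sets (0.54, adjusted p = 0.191).

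The following genes were picked from those called after their values were seen. Thy1, a surface glycoprotein of neurons, read 5989, 6016 and 4989 in wild-type ischemia and 10489, 10031 and 10542 in SUMO-KD ischemia (0.87, SE 0.11, adjusted p = 0.00224) and differed by 0.88 in sham. Gap43, a growth-cone protein, read 514, 578 and 446 against 1083, 1042 and 1078 (1.02, SE 0.11, adjusted p = 0.000998), and Marcksl1 and Stmn1, which bind actin and tubulin, were higher by 0.69 and 0.52. The SMC family genes Smc2 and Smc4 of condensin and Smc5 of the SMC5/6 complex, which is itself associated with a SUMO ligase, were higher by 0.80, 0.65 and 0.98, and all 3 were called in sham. Meg3 and Rian, long noncoding RNAs expressed from the maternal allele of 1 imprinted locus, were higher by 0.69 and 0.86.

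The genes lower in SUMO-KD after ischemia included several that ischemia or neuronal activity is known to induce. In 33 of the 69 the wild-type ischemia mean was more than 2-fold above the wild-type sham mean, and in 17 the SUMO-KD ischemia mean was that far above the SUMO-KD sham mean. Wild-type ischemia arrays enter both the choice of these genes and the first of these counts, so the counts describe the genes and carry no test. Of the 13 genes lower by at least 2-fold, 3 were called lower in sham.

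Inhba encodes a subunit of activin A, a growth factor of the TGF-beta family made by active neurons. It read 1641, 945 and 2092 in wild-type ischemia and 322, 319 and 349 in SUMO-KD ischemia, and in sham 354 to 460 in wild-type and 247 to 325 in SUMO-KD. The wild-type ischemia arrays were the high group, and the other 3 groups lay at or below 460. The difference was -2.07 after ischemia (SE 0.23, adjusted p = 0.00106) and -0.43 in sham (adjusted p = 0.439). Nptx2, a secreted pentraxin that gathers AMPA receptors at synapses, read 5640, 3609 and 5442 against 1774, 1948 and 1451 (-1.47, SE 0.19, adjusted p = 0.00235), and 430 to 606 over all sham arrays. Both genotypes were thus above sham for Nptx2, with wild-type further above. Another Nptx2 probe set gave -0.63 after ischemia and was not called.

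Rgs2, which dampens signalling through Gq proteins, read 4682, 3591 and 4748 in wild-type ischemia and 2019, 2000 and 1416 in SUMO-KD ischemia (-1.25, SE 0.15, adjusted p = 0.00151). In sham the genotypes were alike in level, at 1214 to 1417 and 1221 to 1342. A second Rgs2 probe set gave -1.20 and was called. Ier5, an immediate early gene, read 3694, 3134 and 3735 against 1963, 1639 and 1573 (-1.02, SE 0.13, adjusted p = 0.00236). Ptgs2, the inducible cyclooxygenase COX-2, read 6710, 5269 and 8757 against 1630, 3091 and 1629 (-1.73, SE 0.27, adjusted p = 0.00979). No array of one genotype overlapped the other for any of these, but the Ptgs2 call was lost without SUMO-KD ischemia replicate 3 (-1.58, adjusted p = 0.053) and on the mean of its probe sets (-1.38, adjusted p = 0.0834). In sham Ier5 and Ptgs2 differed by -0.51 and -0.59 and were not called (adjusted p = 0.0723 and 0.341).

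Acan, the proteoglycan aggrecan of perineuronal nets, read 1257, 546 and 1701 in wild-type ischemia and 230, 239 and 252 in SUMO-KD ischemia (-2.00, SE 0.30, adjusted p = 0.00885). Xirp1, an actin-binding protein best known from muscle, read 98.6, 127 and 327 against 20.6, 19.8 and 4.57 (-2.08, SE 0.29, adjusted p = 0.00569) and lay under 5 in all sham arrays. The wild-type values of both genes spread widely, and the SUMO-KD values were tight for Acan and near background for Xirp1.

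Pim1, a serine/threonine kinase induced by cytokines, read 475, 661 and 584 in wild-type ischemia and 193, 115 and 177 in SUMO-KD ischemia (-1.65, SE 0.17, adjusted p = 0.000998), with a second probe set at -1.21. Dyrk3, a kinase that dissolves stress granules, read 938, 840 and 1179 against 457, 403 and 441 (-1.12, SE 0.14, adjusted p = 0.00189). Smad7, the inhibitor of TGF-beta receptors, read 1400, 1341 and 1617 against 742, 700 and 697 (-0.99, SE 0.15, adjusted p = 0.00785). All 3 were separate between genotypes after ischemia, and their sham differences of -0.18, 0.07 and -0.14 were not called. Spry2, a feedback inhibitor of receptor tyrosine kinases, read 4127, 3616 and 4469 against 2026, 2335 and 2102 (-0.91, SE 0.14, adjusted p = 0.00885; -0.75 with adjusted p = 0.0824 on the mean of its probe sets). Spry2 differed by -0.38 in sham and was not called there (adjusted p = 0.225). After ischemia it was the 1 called of 14 MAP kinase phosphatases and Sprouty inhibitors. That list had a median of -0.27, with 9 of 14 members lower without overlap and 1 higher. In sham its median was -0.21, with 10 of 14 differences below 0, 4 members lower without overlap and 2 higher. Errfi1 (-0.58, adjusted p = 0.0716) and Spred2 (-0.46, adjusted p = 0.105) did not pass after ischemia.

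A few genes were lower under both surgeries. Cxcl12, a chemokine that guides cells through its receptor Cxcr4, read 587, 629 and 655 in wild-type ischemia and 194, 261 and 269 in SUMO-KD ischemia (-1.27, SE 0.21, adjusted p = 0.012), and differed by -1.39 in sham. The call was lost without SUMO-KD ischemia replicate 1 (-1.14, adjusted p = 0.0531), a second Cxcl12 probe set gave 0.20, and on the mean of both the difference was -0.54 (adjusted p = 0.116). Ighm, the heavy chain of immunoglobulin M, differed by -1.41 after ischemia (adjusted p = 0.00564) and by -1.77 in sham. Its 10 other Ighm probe sets ran from -0.73 to 0.18. Of these, 4 had the opposite sign, each with means under 32 in both genotypes. The one at -0.73 read 206 in wild-type and 110 in SUMO-KD and was called over all probe sets (adjusted p = 0.0388). The mean of the Ighm probe sets gave -0.25 (adjusted p = 0.158). Trpc6, a cation channel listed here as a dentate granule cell marker, read 121, 97.1 and 112 against 33.0, 28.9 and 32.2 (-1.16, SE 0.10, adjusted p = 0.000325) and differed by -0.75 in sham (adjusted p = 0.00339). Cavin1 of the caveolar coat (-1.48, adjusted p = 0.0216) and Sucnr1, the succinate receptor (-0.98, adjusted p = 0.0145), were not called in sham. Without SUMO-KD ischemia replicate 1 or 3 the adjusted p of Cavin1 was 0.0826 and 0.0982, and without wild-type or SUMO-KD ischemia replicate 3 that of Sucnr1 was 0.0523 and 0.0538. On the mean of its probe sets Cavin1 was at -0.62 (adjusted p = 0.128), where the other Cavin1 probe sets had means under 32 in both genotypes.

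With only the 6 ischemia arrays in the fit 48 genes were called. The named genes that then missed the threshold, at adjusted p from 0.0578 to 0.147, were Ltbp2, Xirp1, Acan, Ptgs2, Cavin1, Sucnr1, Bag3, Cebpb, Gadd45a, Gbp2, Fkbp5, Tgfb2, Pcsk1, Kcna1, Ccn3, Ogn, Neurod1 and Rrad.

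**Figure D3:**
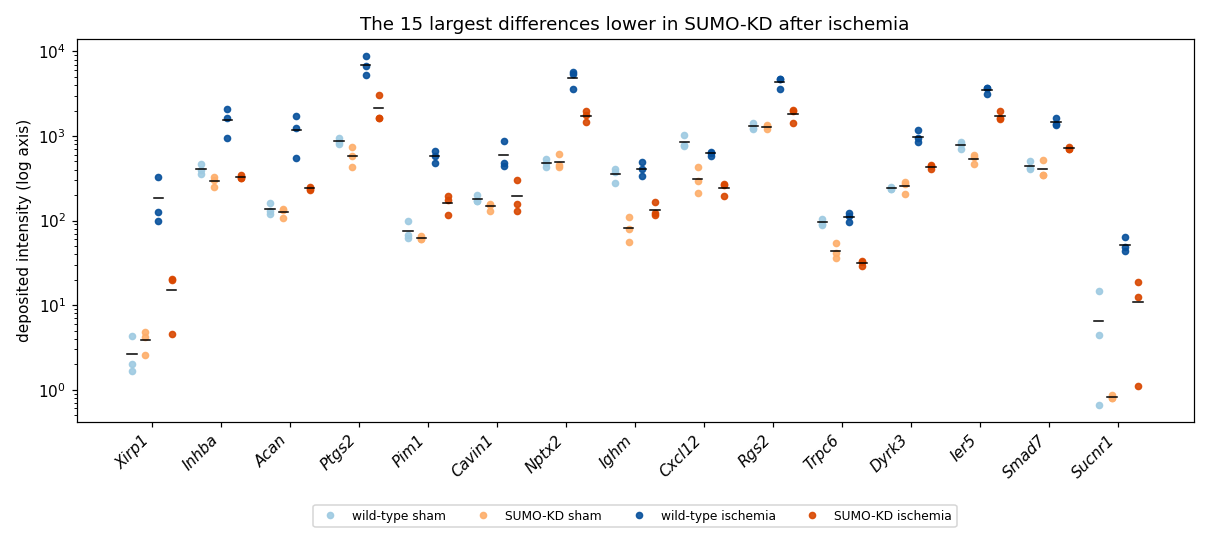
Deposited intensity on a log axis for the 15 genes with the largest differences lower in SUMO-KD after ischemia, with 1 point per array and a bar at the mean of each group of 3. For Inhba, Nptx2, Rgs2 and Dyrk3 the wild-type ischemia arrays are the highest group, whereas Cxcl12, Ighm and Trpc6 are lower in SUMO-KD in sham too.

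A test of the difference between the surgeries was passed by 2 genes, 0.0161% of those tested, while 768 had an unadjusted p under 0.05. These were Sox11 (-2.04, SE 0.23, adjusted p = 0.0219) and Neurod1 (-1.39, SE 0.17, adjusted p = 0.0219), transcription factors of newly formed neurons. Neurod1 read 1325, 1356 and 1534 in wild-type ischemia and 894, 708 and 870 in SUMO-KD ischemia, and in sham 925 to 1071 in wild-type and 1368 to 1697 in SUMO-KD. It was called lower after ischemia (-0.75, adjusted p = 0.0103) and higher in sham (0.64, adjusted p = 0.0178), each without overlap. Sox11 read 845, 529 and 768 against 414, 524 and 501 after ischemia, which did not pass (-0.53, adjusted p = 0.154, or -0.72 and 0.0363 without wild-type ischemia replicate 2), and 181 to 231 against 570 to 715 in sham (1.51, adjusted p = 0.000687). Both tests were lost in 9 of 12 omissions of 1 array: without any wild-type sham array, without wild-type ischemia replicate 3, without SUMO-KD sham replicate 1 or 3, and without any SUMO-KD ischemia array (Sox11 -2.11 to -1.94, adjusted p = 0.0521 to 0.115; Neurod1 -1.45 to -1.29, adjusted p = 0.0521 to 0.115).

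The next genes by p did not pass. Rrad, a small GTPase that restrains calcium channels, read 294, 362 and 472 in wild-type ischemia against 175, 187 and 223 in SUMO-KD ischemia, and 7.90 to 17.7 against 32.8 to 37.7 in sham (interaction -1.36, adjusted p = 0.145). Without wild-type ischemia replicate 1 its interaction was -1.51 (adjusted p = 0.0438). Its ischemia difference was called (-0.83, adjusted p = 0.0216), but not without wild-type ischemia replicate 2 or SUMO-KD ischemia replicate 1 or 2 (adjusted p from 0.0526 to 0.0864). Camk2d, a calcium-dependent kinase, was higher in SUMO-KD in sham by 0.88 and differed by -0.13 after ischemia (interaction -1.01, adjusted p = 0.145). For Dyrk3, Pim1, Rgs2, Nptx2, Inhba and Xirp1 the interaction ran from -2.13 to -1.18 with adjusted p from 0.145 to 0.229, so none of these is shown to depend on ischemia by this test.

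**Figure D4:**
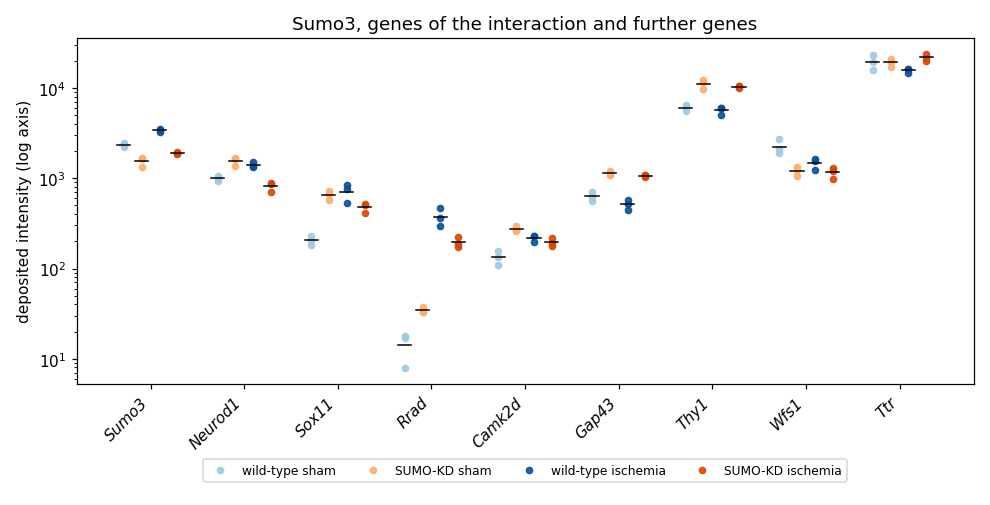
Deposited intensity on a log axis for Sumo3, the genes of the interaction test and further genes named in the text, with 1 point per array and a bar at the mean of each group of 3. Neurod1 and Sox11 are higher in SUMO-KD in the sham pair and lower in mean in the ischemia pair, whereas Thy1 and Gap43 are higher in SUMO-KD in both pairs.

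Immediate early genes were counted as a list of transcription factors and effectors that neurons switch on without new protein synthesis. Of 38 measured, 6 were called lower in SUMO-KD after ischemia (Inhba, Rgs2, Nptx2, Ier5, Klf10 and Srf) and none higher (1 without SUMO-KD ischemia replicate 2), against 0.557% and 1.0% of all genes. The list's median was -0.37 against -0.00307 for all genes, 27 of 38 differences were below 0, and 15 genes were lower without overlap and 1 higher. In sham the list had a median of -0.21 against -0.0123 for all genes, and 31 of 38 differences below 0. There 15 genes were lower without overlap and 1 higher, with no share over all genes counted in sham. Without SUMO-KD ischemia replicate 2, which stood apart, the ischemia median was -0.23. The inducible factors best known from ischemia did not all share this: Fos was at 0.02 (adjusted p = 0.983), Egr1 at 0.04 (adjusted p = 0.936) and Jun at 0.07 (adjusted p = 0.876), each with overlapping arrays. Atf3 (-0.70, adjusted p = 0.0854) and Egr2 (-0.94, adjusted p = 0.0895) were lower without overlap but not called, Arc was at -0.57 (adjusted p = 0.142), and Klf4 at 1.15 (adjusted p = 0.073) pointed the other way. The Srf call was lost without any 1 of the 6 ischemia arrays (adjusted p from 0.0745 to 0.139), and that of Klf10 without SUMO-KD ischemia replicate 1 or 3 (adjusted p = 0.0515 and 0.0544). In sham 6 members were called lower, among them Arc (-1.40), Nr4a1 (-1.22) and Egr1 (-0.86), and Srf was called under both surgeries.

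Promoters were read for the DNA element that CREB and ATF factors bind, the cAMP response element TGACGTCA, for its core TGACG and for the AP-1 element TGANTCA, each on both strands in the 250 bases before the gene start (RefSeq, GRCm38.p6). The core lies within the full element. The full element stood in 2.12% of 12567 promoters of tested genes, in 2.75% of 109 promoters of 90 higher genes and in 0 of 68 promoters of 50 lower genes. The core stood in 23.2%, 17.4% and 25% of them, and the AP-1 letters in 5.67%, 3.67% and 8.82%. The shares are descriptions with no test and say nothing of binding. Below, Cartpt is shown as the neuropeptide gene with the largest difference, and Rgs2 and Inhba as activity-linked genes lower in SUMO-KD, all chosen after their values were seen. Sequences run 5′ to 3′ on the gene's strand, and capitals mark the full element in Cartpt (from base 139) and the core in Rgs2 (from base 66 on the reverse strand and from base 184); Inhba holds none of these letters in this window. The windows are chr13:99900684-99900933 on the minus strand for Cartpt, chr1:144004150-144004399 on the minus strand for Rgs2 and chr13:16011601-16011850 on the plus strand for Inhba.
Cartpt: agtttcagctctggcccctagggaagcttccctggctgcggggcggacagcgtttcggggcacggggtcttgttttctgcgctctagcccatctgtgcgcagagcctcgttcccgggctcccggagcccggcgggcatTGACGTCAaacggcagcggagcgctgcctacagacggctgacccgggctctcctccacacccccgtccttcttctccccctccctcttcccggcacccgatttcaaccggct
Rgs2: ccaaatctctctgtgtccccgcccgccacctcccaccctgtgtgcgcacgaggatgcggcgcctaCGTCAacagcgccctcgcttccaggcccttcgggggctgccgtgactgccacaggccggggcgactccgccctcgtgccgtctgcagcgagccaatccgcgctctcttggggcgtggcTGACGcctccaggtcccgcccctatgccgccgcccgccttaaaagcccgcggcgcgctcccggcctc
Inhba: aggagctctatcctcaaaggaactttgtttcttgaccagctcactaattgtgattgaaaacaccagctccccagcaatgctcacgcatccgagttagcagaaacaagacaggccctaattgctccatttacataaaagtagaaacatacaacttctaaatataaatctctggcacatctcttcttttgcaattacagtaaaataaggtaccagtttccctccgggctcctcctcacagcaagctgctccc

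Of 35 interferon response genes, Gbp2, an interferon-induced GTPase, was called lower (-0.89, SE 0.19, adjusted p = 0.0388) and none higher, with 30 differences below 0, 13 lower and 1 higher without overlap and a median of -0.26, where the sham median was 0.00883. Gbp2 read 271, 326 and 209 in wild-type ischemia and 100, 169 and 121 in SUMO-KD ischemia; without wild-type ischemia replicate 1 or 2 or SUMO-KD ischemia replicate 1 or 3 its adjusted p was 0.114 to 0.146. Gbp3 (-1.03, adjusted p = 0.0945), Ifitm3 (-0.75, adjusted p = 0.0949) and Oasl2 (-0.50, adjusted p = 0.0561) did not pass. Trim25, a ubiquitin ligase of antiviral sensing, was the member higher without overlap (0.48, adjusted p = 0.0529), and it was called higher in sham (0.83). Of 36 inflammation and NF-kB genes Ptgs2 alone was called lower and none higher, with a median of -0.18 and 27 differences below 0. In sham that list had a median of -0.10 and 26 differences below 0.

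Cebpb, a factor of stress and inflammation, read 2666, 2545 and 2923 in wild-type ischemia and 1580, 1833 and 1759 in SUMO-KD ischemia (-0.64, SE 0.10, adjusted p = 0.0116). Cebpb was called lower in sham too (-0.50, adjusted p = 0.0344). After ischemia it was the 1 called of 25 ATF4 targets of the integrated stress response, of which 22 were below 0 (median -0.18). Its call was lost without SUMO-KD ischemia replicate 3 (-0.66, adjusted p = 0.0525), and a second Cebpb probe set gave -0.54 and was not called. Bag3, a cochaperone of Hsp70, differed by -0.63 (adjusted p = 0.0388) and was the 1 called of 30 heat shock genes (median -0.10, and -0.09 in sham). Gadd45a, a DNA damage and stress sensor, differed by -0.54 (adjusted p = 0.0372), while its list of 24 p53 targets had Trp53inp1 called higher and a median of 0.00261. The lists for ER chaperones and for NRF2 targets had no called member and medians of -0.01 and -0.02. The Bag3 call was lost without any 1 array except wild-type ischemia replicate 2, and that of Gadd45a without any except SUMO-KD ischemia replicate 2, with adjusted p from 0.0685 to 0.156.

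Single members stood out in other lists. Fkbp5, a chaperone induced by glucocorticoids, read 1068, 910.5 and 1039 in wild-type ischemia and 1464, 1530 and 1680 in SUMO-KD ischemia (0.62, SE 0.10, adjusted p = 0.0101) and was higher by 1.01 in sham; it was not called without SUMO-KD ischemia replicate 3 (0.56, adjusted p = 0.0538) or on the mean of its probe sets (0.49, adjusted p = 0.155). Cnih3, an auxiliary subunit of AMPA receptors, read 352, 290 and 359 against 627, 658 and 655 (0.90, SE 0.14, adjusted p = 0.0113) and was higher by 1.29 in sham; without SUMO-KD ischemia replicate 3 the adjusted p was again 0.0538. Tgfb2, a secreted TGF-beta ligand, differed by -0.67 (adjusted p = 0.0316) and by -0.91 in sham, with both other probe sets also called lower (-0.53 and -0.60). The potassium channel gene Kcna1 differed by -0.52 (adjusted p = 0.0273). Tgfb2 was not called without any 1 of the 6 arrays (adjusted p from 0.0592 to 0.138), nor Kcna1 without any except SUMO-KD ischemia replicate 2 (0.0531 to 0.125).

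Oxidative phosphorylation genes, which encode the respiratory chain and ATP synthase, were mostly above 0 by small amounts. Of 59 measured, 0 were called by limma, and 53 differences were above 0 and 24 genes were higher without overlap against 11.3% of all genes, with a median of 0.11; in sham the median was -0.00397. The median was 0.09 after quantile normalization and 0.15 without SUMO-KD ischemia replicate 2. Ndufv3 had the smallest adjusted p of the list (0.30, adjusted p = 0.137). Of all 46 lists, which held 1050 measured genes, 28 had no called member, among them those for the proteasome, splicing factors, hypoxia targets, the circadian clock, GABA receptors and chromatin modifiers. In all, 30 of these 1050 genes were called, where 1.56% of all tested genes were. The lists were chosen with earlier results of these data known, so this count carries no test.

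**Figure D5:**
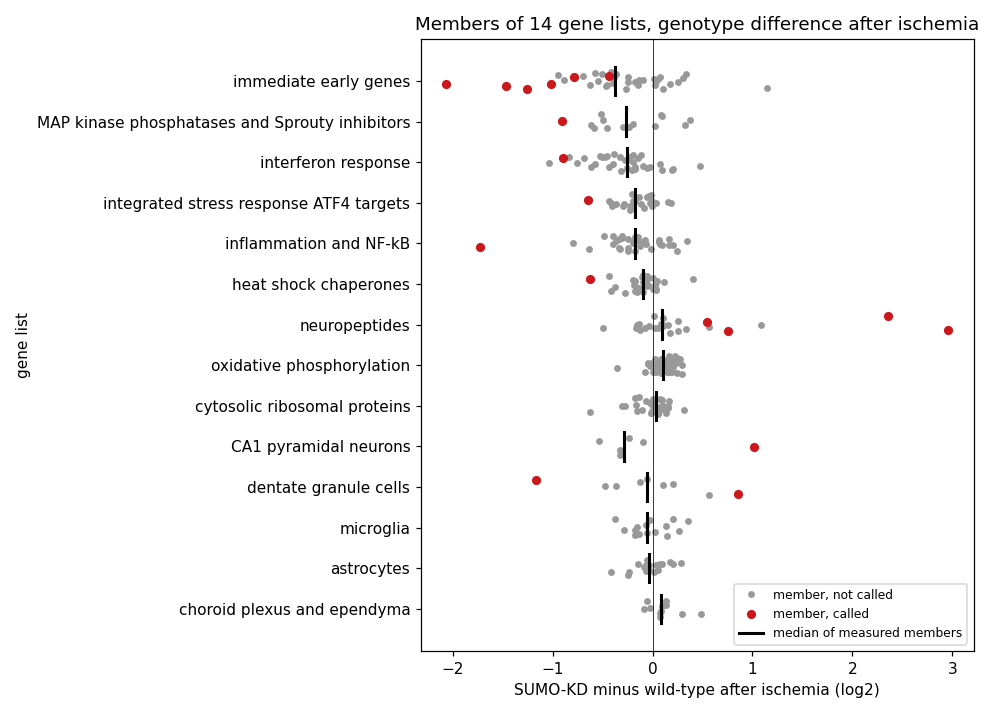
Each point is a measured gene of the list named on the y axis, placed by its SUMO-KD minus wild-type difference after ischemia in log2(intensity + 32), with called genes in red and a bar at the list's median. Immediate early genes have a median of -0.37 with 6 called lower, and oxidative phosphorylation genes are packed around 0.11 with none called.

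The tissue was checked against markers of hippocampal fields. The CA1 pyramidal markers Wfs1, Dkk3 and Pou3f1 were bright in all ischemia arrays, Wfs1 at 1625, 1538 and 1240 in wild-type and 1296, 989 and 1207 in SUMO-KD. The genotypes overlapped for Wfs1 and its difference was not called (-0.33, adjusted p = 0.349), although it was lower in SUMO-KD in sham (-0.87, adjusted p = 0.0144). Of 6 CA1 markers, Ccn3, a matricellular protein, was called higher (373, 441 and 355 against 894, 648 and 932; 1.01, SE 0.14, adjusted p = 0.00546) and the other 5 were below 0. The list's summed intensity after ischemia ranged from 4435 to 6140 in wild-type and from 4604 to 5609 in SUMO-KD, so it overlapped. In sham the CA1 list had a median of -0.63, with 5 of 6 markers below 0, 4 lower without overlap and 1 higher. Of 9 genes listed here as dentate granule markers, Calb1, the calcium buffer calbindin, was called higher and Trpc6 lower. Calb1 read 2083, 2211 and 1943 in wild-type ischemia against 3663, 3640 and 4076 in SUMO-KD ischemia (0.86, SE 0.10, adjusted p = 0.00148). Prox1, the defining factor of dentate granule cells, differed by -0.48 (adjusted p = 0.287). Which cells gave the Calb1 signal was not tested.

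No marker of interneurons, astrocytes, oligodendrocytes, microglia, endothelium or mural cells was called. Their list medians lay between -0.12 and -0.00103, and the summed intensities of microglial markers were 9821 to 11141 in wild-type and 9217 to 10193 in SUMO-KD. The choroid plexus gene Ttr, which encodes transthyretin, read 14655, 16283 and 16204 in wild-type ischemia and 20180, 21789 and 24136 in SUMO-KD ischemia, without overlap but not called (0.48, adjusted p = 0.121). Other choroid plexus markers did not follow it: their differences lay between -0.09 and 0.29 with overlapping arrays, and the list's median of 0.08 became -0.30 without SUMO-KD ischemia replicate 2. The part of tissue composition in the called genes was not tested.

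Called genes were placed in the order of tested genes along the chromosomes (RefSeq, GRCm38.p6), which located 12378 tested genes and all 193 called ones. There were 7 pairs of immediate neighbours, where 1.56% of all tested genes were called. The number of pairs due to chance was not computed, so they are listed as descriptions only. Ptgs2 stood beside Pla2g4a, the phospholipase that frees its substrate arachidonic acid, and both were lower (-1.73 and -0.98). Dyrk3 stood beside Mapkapk2, a kinase downstream of p38, also both lower (-1.12 and -0.69). Meg3 and Rian, Lyst and Gng4, and the protocadherins Pcdhb20, Pcdhb21 and Pcdhb22 (1.30, 1.22 and 1.48) were higher together, whereas the channel genes Kcna5 (1.11) and Kcna1 (-0.52) were neighbours with opposite signs. Clustered protocadherins are near copies of each other, so their probe sets may share signal.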

How the data were processed

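Total RNA of CA1 pools was hybridised to 12 Affymetrix arrays. The deposited series table holds linear intensity values per probe set whose trimmed mean was 500.2 on all 12 arrays. Partek 6.6 and RMA appear in the submitters' processing notes with no role stated, and how these linear values were made is not stated in those notes. Of 22690 probe sets, 20393 listed a single gene, and the one with the highest mean over all 12 arrays stood for each of 12394 genes. Values were taken as log2(intensity + 32) and fitted with 4 group means in limma 3.58.1 (R 4.3.3), with contrasts after ischemia, in sham and between them, Benjamini-Hochberg adjustment and two-sided tests. The calculation was tested on simulated data.

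Named genes were Sumo3, the 15 with the largest difference in each direction among those called without overlap, up to 3 called members of each list by adjusted p, and the 5 with the smallest interaction p. All other genes named, list members without a call included, were chosen after their values were seen. The members and the 46 lists (30 of pathways, 16 of cell types or regions) were chosen with earlier results of these data known. Alternatives were other offsets, probe-set rules, scalings, filters on dim genes, fits, a 2-fold threshold and leaving out each array.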

Additional observations from a re-analysis of the deposited data

Results flagged for a closer look

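In 2 genes the genotype difference after ischemia differed from that in sham by the interaction test in limma. Sox11 was at -0.53 after ischemia, which was not called (adjusted p = 0.154), and at 1.51 in sham. The difference between surgeries was -2.04 (adjusted p = 0.0219). Its arrays did not overlap between genotypes under either surgery, but after ischemia the lowest wild-type array read 529 and the highest SUMO-KD array 524. Neurod1 was at -0.75 and 0.64, a difference of -1.388 (adjusted p = 0.0219), also without overlap under either surgery. Both interaction calls were lost in 9 of 12 omissions of 1 array. That of Sox11 was also lost with the replicate number as a block (adjusted p = 0.0615).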

How the results depend on the processing

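No difference of a named gene or count reversed under the alternatives run. Against 193 genes called after ischemia (124 higher, 69 lower), 30 called list members, 260 called in sham and 69 higher and 10 lower under both surgeries, the compared groups alone gave 48 (35 and 13), 16, 130, 27 and 2. Array weights gave 331 (222 and 109), 49, 457, 110 and 23, and a 2-fold threshold gave 49 (36 and 13), 15, 70, 31 and 2. A trend with robust variances gave 47 list members and 17 genes lower under both surgeries; that last count was 4 on the mean of probe sets and 16 under each filter on dim genes. Leaving out 1 array gave 60 to 155 genes after ischemia (36 to 100 higher, 24 to 67 lower), 15 to 27 list members, 112 to 206 in sham, 27 to 64 higher and 4 to 9 lower under both, and 0 to 5 interaction genes. The share of calls higher in SUMO-KD was 64.2%, and ran from 56% (without wild-type ischemia replicate 1) to 73.5% (2-fold threshold), with 62% after quantile normalization and 58.4% after median centring. Of 866 differences of named genes after ischemia under alternatives, interaction values not counted, 776 kept their side of the threshold, 89 lost the call and 1, Sox11, gained it. With an offset of 16, Bag3, Gadd45a, Gbp2 and Pcsk1 were not called, nor was Bag3 after median centring. Dim probe sets and 3 arrays per group limit the precision.

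The groups share replicate numbers. For replicates 1, 2 and 3 the deviations of same-numbered arrays from their group means correlated at 0.247, -0.166 and 0.0324 after ischemia. Replicate 1 had the lowest median intensity in each of the 4 groups. The 3′ to 5′ ratio of the beta-actin control fell from replicate 1 to replicate 3 in each group. It went from 1.72 to 1.54 in wild-type ischemia and from 1.66 to 1.43 in SUMO-KD ischemia. The labels do not say what the number stands for, so the main fit leaves it out, and what same-numbered arrays share was not tested. With the replicate number as a block 180 genes were called after ischemia (114 higher, 66 lower) and 1 interaction gene, Neurod1 (adjusted p = 0.0131), while Sox11 had an adjusted p of 0.0615; Gadd45a and Pcsk1 were not called.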
